A study of Mus musculus with 4 samples.

Results

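Regulators of G protein signaling (RGS) are proteins that bind the GTP-loaded alpha subunit of a G protein and speed the hydrolysis of its GTP, which shortens the signal of the receptor upstream. The mRNAs of 5 family members, Rgs1, Rgs2, Rgs3, Rgs10 and Rgs16, were followed here through the CD8+ and CD4+ Tc of leukemia-bearing mice after allogeneic transplantation. These 5 genes of 32285 in the matrices were taken by their symbols. They had been picked because earlier values from the same cells showed them at different levels in different Tc states, so the levels by state are given as a description and without a test.

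The 4 libraries held spleen cells taken on day 23, 1 library per mouse, from BALB/c recipients that had undergone lethal total body irradiation and received WEHI-3B cells, a BALB/c myelomonocytic leukemia line, together with allogeneic BM and, later, allogeneic Tc. In all 4 mice the donors were on the C57BL/6 background and carried floxed alleles of Havcr2, the gene of TIM-3. The donors of 2 mice were Havcr2fl/fl and served as floxed controls, and the donors of the other 2 were Havcr2fl/fl;E8icre/+, in which a Cre driven by the E8i enhancer of Cd8a is meant to delete Havcr2 in CD8+ cells. The libraries are called floxed 1, floxed 2, cre 1 and cre 2 below, with the replicate numbers of the labels. An oligo-tagged Ab against the donor MHC class I molecule H-2Kb had been added to the cells; the sources describe Tc enrichment with a pan-T kit in one place and sorting of donor Tc in another.

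Cells of the immune system steer by chemokine and lipid receptors that couple mainly to Gi proteins. RGS proteins act as a brake on this class of receptors, and lymphocytes change the mix of RGS mRNAs when they are activated. Rgs1, Rgs2, Rgs3 and Rgs16 belong to one subfamily of the RGS proteins, whereas Rgs10 is a small protein of another subfamily that also holds Rgs12 and Rgs14. Most of the members act on Gi or on both Gi and Gq alpha subunits, while Rgs2 prefers Gq. In Tc biology, precursor exhausted cells (T_PEX) keep the transcription factor Tcf7 and stay in lymphoid tissue, and terminally exhausted cells (T_TEX) carry inhibitory receptors and factors of the Nr4a and Tox families.

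The matrices held between 1511 and 6737 barcodes and between 17693991 and 55045903 gene UMIs per library, and 11513 cells were kept. Only 6759 of them fell in clusters with Cd3e, Cd3d and Cd3g RNA, so the label of the samples, T cells, covered part of the cells. The others included erythroid, myeloid, progenitor and B lineage-like cells and clusters that no marker list named. By their Cd8 and Cd4 UMIs, 4254 cells were CD8+ Tc and 1752 were CD4+ Tc. Between 1 and 10 cell barcodes occurred in both libraries of a pair. Havcr2, checked first, stood at 61.3 CPM in cre 1, 7.94 in cre 2, 54.7 in floxed 1 and 115 in floxed 2 in the CD8+ Tc. The library labelled Havcr2fl/fl;E8icre/+ replicate 1, cre 1, therefore kept Havcr2 RNA at the level of floxed 1. The genotype comparisons of the members below are thus given with and without it. Among T_TEX-like cells Havcr2 was at 147, 15.5, 113 and 236 CPM in cre 1, cre 2, floxed 1 and floxed 2, and among T_PEX-like cells at 1.22, 0.75, 11.5 and 11.8 CPM, the last from 6 or fewer UMIs in each library.

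Promoter sequence was at hand for 4 of the 5 members, and is shown so that members with opposite levels in the same states can be read side by side. The RefSeq windows on GRCm38.p6 run from 150 to 21 bases before the transcription start, 5′ to 3′ on the strand of the gene. Rgs3 has 17 annotated transcripts and Rgs10 has 6, and reads of the 3′ end do not show which start these Tc used. The Rgs10 window lies inside the span of its gene, so an annotated start lies further upstream. Capitals mark the motifs found.
Rgs2, chr1:144004170-144004299, minus strand: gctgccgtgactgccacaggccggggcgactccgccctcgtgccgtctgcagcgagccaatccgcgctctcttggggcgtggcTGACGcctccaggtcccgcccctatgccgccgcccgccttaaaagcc
Rgs3, chr4:62559697-62559826, plus strand: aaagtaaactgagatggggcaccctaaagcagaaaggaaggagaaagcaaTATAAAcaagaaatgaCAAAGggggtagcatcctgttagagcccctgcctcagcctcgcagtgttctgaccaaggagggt
Rgs16, chr1:153740203-153740332, plus strand: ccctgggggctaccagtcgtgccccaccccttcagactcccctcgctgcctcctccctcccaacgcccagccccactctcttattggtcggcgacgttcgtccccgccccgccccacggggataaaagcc
Rgs10, chr7:128418193-128418322, minus strand: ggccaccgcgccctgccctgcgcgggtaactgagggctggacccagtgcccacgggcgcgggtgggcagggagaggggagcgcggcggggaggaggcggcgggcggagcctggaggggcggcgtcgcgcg
The search covered both strands for exact letters. These were the cAMP-response half-site TGACG, the NFAT core GGAAA, the TCF core CTTTG, the AP-1 motif TGANTCA and the TATA-type motif TATAAA. Only the windows of Rgs2 and Rgs3 held any of these letters. The Rgs2 window had TGACG at 67 bases before the start, a motif found in 11.2% of the 32851 promoter windows of that length. In the Rgs3 window the TCF core lay at 84 bases and the letters TATAAA at 100 bases before the start. These motifs were present in 28.2% and 6.91% of all windows. The search did not weigh the place of a motif, so this match is not called a TATA box. Near variants, such as gataaaa in the Rgs16 window and ttaaaa in the Rgs2 window, both close to the start, were not counted. GC content ran from 48.5% in Rgs3 through 69.2% in Rgs16 and 72.3% in Rgs2 to 81.5% in Rgs10. Rgs10, the member that was highest in T_PEX-like cells, held no TCF core in this window, which says only that these letters are not there.

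Rgs1, Rgs2 and Rgs16 lie on chromosome 1: Rgs2 at chr1:143999338-144004161 and Rgs1 at chr1:144242296-144249242, both on the minus strand, and Rgs16 at chr1:153740349-153745468 on the plus strand (GRCm38). Rgs3 spans chr4:62559847-62704001 on the plus strand, and Rgs10 spans chr7:128373621-128418758 on the minus strand. Rgs10 overlaps the predicted gene Gm15503 on its own strand, so reads of the overlap could not be told apart, whereas the predicted genes overlapping Rgs3 (Gm11209) and Rgs16 (Gm28513) lie on the opposite strand.

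The CD8+ Tc were split into 10 clusters and the CD4+ Tc into 6, named only from marker genes among which there was no RGS gene. These numbers are those of the paper and were set beforehand. The resolution was raised until at least that many clusters were reached, so the numbers are not a result. All RGS genes were also left out of the genes used for clustering, but the members move with genes that were used, so a cluster against the rest is no test. Levels are CPM, the UMIs of a gene summed over the cells of a cluster in a library and scaled to the summed UMIs of all genes there, and a cluster was read in a library where it had at least 10 cells. T_PEX-like cells had 6 of 6 markers raised, among them Tcf7, Slamf6 and Xcl1, and T_TEX-like cells had 6 of 8 (Nr4a2, Pdcd1, Lag3, Entpd1, Cd244a and Eomes). The T_TEX markers Tox and Cd160 were not raised in them, none of the 8 was among their top 10 genes, and the effector gene Gzma was, so the name rests on a naming condition that was loosened after the names had been seen. Tox was highest in the Gzmk Ccl5 cluster. In the CD4+ Tc, Treg-like cells were defined by Foxp3, Il2ra and Ikzf2, cytotoxic-like cells by Nkg7, Gzmb and Ccl5, and precursor memory-like cells by Tcf7, Slamf6 and Izumo1r. Clusters that no marker list named are called here by 2 of their leading genes.

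**Figure D1:**
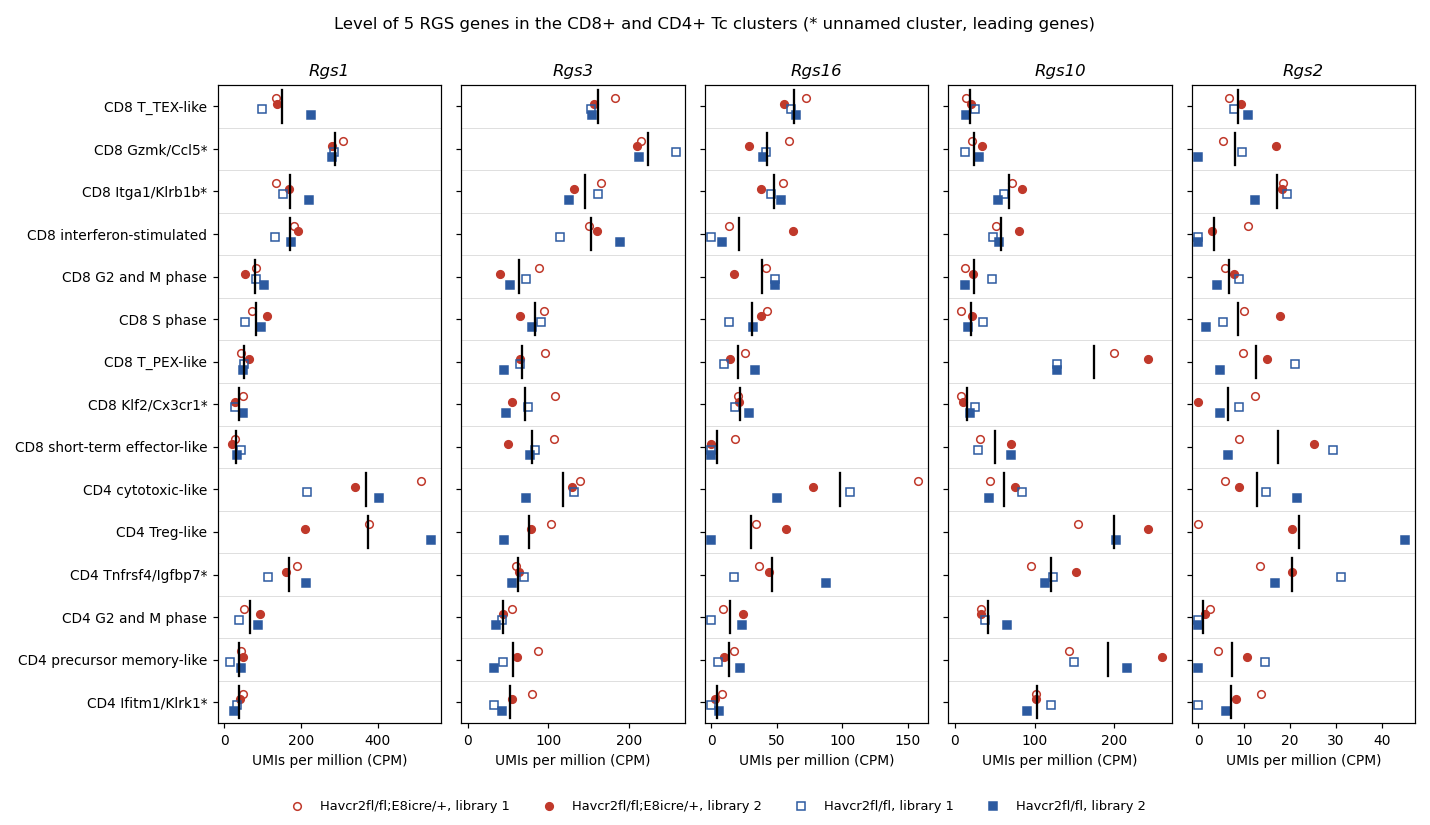
Level of each RGS gene (CPM, horizontal axis) in 9 CD8+ and 6 CD4+ Tc clusters (rows); each point is a library and the black bar is the mean over libraries. Among the CD8+ clusters Rgs1 and Rgs3 peaked in the Gzmk Ccl5 cluster; over both lineages Rgs16 had its highest means in T_TEX-like and CD4 cytotoxic-like cells, and Rgs10 its highest means in T_PEX-like, precursor memory-like and Treg-like cells, while Rgs2 stayed at or below 45.0 CPM in every library.

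Rgs1, which limits the response of lymphocytes to chemokines, was highest among the CD8+ Tc in the Gzmk Ccl5 cluster, an unnamed cluster with 4 of 8 T_TEX markers and 3 of 7 effector markers raised, at 309 CPM in cre 1, 282 in cre 2, 286 in floxed 1 and 282 in floxed 2. All 4 values lay above every value of the next cluster in order, the interferon-stimulated cells, which ranged over 133 to 192 CPM. The Itga1 Klrb1b cluster, with raised Itga1 and Cxcr6 RNA of resident cells, followed with 136 to 222 CPM, and the T_TEX-like cells with 135, 138, 97.6 and 226 CPM in the same order of libraries. Interferon-stimulated, Itga1 Klrb1b and T_TEX-like cells overlapped in their ranges, so no order among them can be read. At the low end, Rgs1 was at 42.8, 64.5, 51.7 and 47.4 CPM in T_PEX-like cells and at 26.7, 20.1, 43.8 and 31.9 CPM in short-term effector-like cells, whose marker list holds Cx3cr1 and Klrg1. T_PEX-like, Klf2 Cx3cr1 and short-term effector-like cells overlapped with their neighbours in the order.

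The difference in Rgs1 between T_TEX-like and T_PEX-like cells of the same library was 1.40 ± 0.58 (SD, n = 4) on the log2(CPM + 5) scale, and it was positive in 4 of 4 libraries. For comparison, 18.2% of the genes with a mean of at least 5 CPM were higher in T_TEX-like cells in every library and 17.8% were lower in every library. The Gzmk Ccl5 cluster exceeded T_PEX-like cells by 2.39 ± 0.28 (SD, n = 4) in Rgs1, where 18.2% of genes were higher in every library. It also exceeded T_TEX-like cells in 4 of 4 libraries, by 1.00 ± 0.50 (SD, n = 4), beside 15.2% of genes.

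Among the CD4+ Tc, cytotoxic-like and Treg-like cells had the most Rgs1 RNA. The cytotoxic-like cells held 513 CPM in cre 1, 342 in cre 2, 216 in floxed 1 and 402 in floxed 2. The Treg-like cells overlapped them, with 377 CPM in cre 1, 209 in cre 2 and 539 in floxed 2; floxed 1 had only 4 such cells and was not read. Both states stood apart from the precursor memory-like cells, which held 43.5, 47.3, 14.5 and 43.0 CPM, with no overlap in any library. The difference between cytotoxic-like and precursor memory-like cells came to 3.18 ± 0.35 (SD, n = 4) on the log2 scale, with 14.6% of genes higher in every library. Treg-like cells exceeded precursor memory-like cells by 2.84 ± 0.75 (SD, n = 3), beside 20.2% of genes higher and 17.2% lower in each of the 3 libraries. The median of all genes moved by -0.23 under TMM scaling in this last comparison, and the Rgs1 difference was then 2.59. With no integration, where the precursor memory-like cluster was larger, it was 1.15. Treg-like cells rested on 119 Rgs1 UMIs in all. Erythroid RNA differed between the libraries of this state: the 7 erythroid markers, none of which was at 0, summed to 77.1 CPM in cre 1, 10192 in cre 2 and 39855 in floxed 2. Floxed 2 had the most of this RNA and the most Rgs1, while cre 1 had the least and ranked between the others in Rgs1; the part of erythroid RNA in these levels was not tested.

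Rgs3, a GAP for Gi and Gq alpha subunits, shared the CD8+ peak of Rgs1 but had a smaller range. In the Gzmk Ccl5 cluster it stood at 215 CPM in cre 1, 209 in cre 2, 258 in floxed 1 and 212 in floxed 2. All 4 values were above the whole range of T_TEX-like cells, the next in order, at 183, 156, 152 and 154 CPM. T_TEX-like, interferon-stimulated and Itga1 Klrb1b cells formed a middle group with overlapping ranges, the last at 125 to 166 CPM, and did not overlap with the 5 lower clusters that followed, whose means lay between 63.2 and 82.7 CPM. T_PEX-like cells were among these 5, with 95.4, 64.5, 65.2 and 45.0 CPM. The T_TEX-like minus T_PEX-like difference of Rgs3 was 1.24 ± 0.32 (SD, n = 4) on the log2 scale and positive in 4 of 4 libraries. In the CD4+ Tc Rgs3 was highest in the cytotoxic-like cells of every library, at 139, 129, 132 and 71.8 CPM, and these exceeded the precursor memory-like cells by 1.05 ± 0.35 (SD, n = 4). Treg-like cells held 103, 77.9 and 45.0 CPM in cre 1, cre 2 and floxed 2, a range that overlapped that of the cytotoxic-like cells, although the cytotoxic-like cells were higher within each of these 3 libraries, by 0.58 ± 0.14 (SD, n = 3), beside 15.1% of genes. The floxed 2 value of Treg-like cells rests on few counts, being below 67.4 CPM, the level of 3 UMIs in these 17 cells. Rgs3 was the one member whose highest cluster was the same in every library in both lineages, with Treg-like cells not read in floxed 1.

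Rgs16 is induced in activated Tc, where it dampens responses to chemokines. It differed from Rgs1 and Rgs3 in that T_TEX-like cells, not the Gzmk Ccl5 cluster, had the highest mean among the CD8+ Tc. The level was 72.4 CPM in cre 1, 55.8 in cre 2, 60.5 in floxed 1 and 65.0 in floxed 2, and no value reached down to the range of the next cluster, the Itga1 Klrb1b cells at 38.1 to 54.4 CPM. In cre 2 the interferon-stimulated cells were higher still, at 62.1 CPM, whereas the same cells held 13.4 CPM in cre 1, 7.86 in floxed 2 and 0 in floxed 1, where a count of 0 allows up to 28.6 CPM. T_PEX-like cells had 25.7, 14.3, 9.58 and 33.2 CPM, and the T_TEX-like minus T_PEX-like difference was 1.51 ± 0.54 (SD, n = 4) on the log2 scale, positive in 4 of 4 libraries. It was 0.69 when the libraries were clustered with no integration and 2.68 when marker genes took the place of clusters. In this last setting, cells with Nr4a2 and no Tcf7 UMI stood against cells with Tcf7 and no Nr4a2 UMI. Rgs16 went with Nr4a2 in single CD8+ Tc, so this value is no independent check. T_TEX-like cells were also above the Gzmk Ccl5 cluster in each library, the latter being lower by 0.56 ± 0.24 in log2, a direction shared by 12.8% of genes. The lowest level was that of the short-term effector-like cells, in which 4 UMIs were counted in all, every one in cre 1 (17.8 CPM). The 0 of the other 3 libraries allows up to 15.1 CPM in cre 2, 14.6 in floxed 1 and 19.1 in floxed 2 (3 counts of the total in each library, counting error only).

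In the CD4+ Tc Rgs16 followed the same division between cytotoxic and precursor cells. The cytotoxic-like cells had 158 CPM in cre 1, 77.6 in cre 2, 106 in floxed 1 and 50.3 in floxed 2, and the precursor memory-like cells 17.4, 9.46, 4.82 and 21.5 CPM, so that the groups did not overlap. Their difference was 2.48 ± 1.03 (SD, n = 4) on the log2 scale. In floxed 2 the Tnfrsf4 Igfbp7 cluster, an unnamed CD4+ population with raised Tnfrsf4 and Tnfrsf18, was higher than the cytotoxic-like cells, with 87.4 CPM against 17.5 to 44.1 CPM in the other libraries. The level in Treg-like cells could not be placed: it was 34.3 CPM in cre 1, 57.4 in cre 2 and 0 in floxed 2, where a count of 0 allows up to 67.4 CPM.

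Rgs10, a short RGS protein that acts on Gi alpha subunits, ran the other way between T_PEX-like and T_TEX-like cells. In T_PEX-like cells it was at 199 CPM in cre 1, 242 in cre 2, 128 in floxed 1 and 128 in floxed 2. The T_PEX-like cells were highest in each library, and their lowest value exceeded the highest of the Itga1 Klrb1b cells, the next cluster, which held 54.6 to 84.3 CPM. T_TEX-like cells held 14.5, 20.1, 25.4 and 14.4 CPM, from 62 UMIs in all. The difference of T_TEX-like minus T_PEX-like cells was -2.90 ± 0.58 (SD, n = 4) on the log2 scale, 7.46-fold lower, and negative in 4 of 4 libraries. Below the Itga1 Klrb1b cells no pair of neighbours in the order could be separated by their ranges. The Gzmk Ccl5 cluster, at 12.7 to 33.7 CPM, was close to T_TEX-like cells, so the CD8+ states with the most Rgs16 and the most Rgs1 RNA were both among those with little Rgs10.

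The dendritic-like cells of the same libraries had the highest Rgs10 level of all cells, and the 6 dendritic markers were therefore set beside it. They summed to 90.1 to 145 CPM in T_PEX-like and 50.8 to 103 CPM in T_TEX-like cells, against 1035 to 1620.2 CPM in the dendritic-like cells. Siglech, Clec9a and Flt3 were at 0 in T_PEX-like cells, so the whole sum there came from Xcr1, Ccr9 and Bst2, and it was higher on average in T_PEX-like than in T_TEX-like cells, as Rgs10 was. The part of dendritic cell RNA in the Rgs10 level was not tested. The summed level of 13 genes that respond to tissue dissociation, among them Fos and Jun, was 783 to 1009 CPM in T_PEX-like, 506 to 666 CPM in T_TEX-like and 624 to 709 CPM in Gzmk Ccl5 cells; its part in the levels of the members was not tested.

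In the CD4+ Tc Rgs10 stood at 144 CPM in cre 1, 259 in cre 2, 149 in floxed 1 and 215 in floxed 2 in the precursor memory-like cells. Treg-like cells could not be told from them, with 154 CPM in cre 1, 242 in cre 2 and 202 in floxed 2, and the difference between both states was -0.03 ± 0.11 (SD, n = 3) on the log2 scale, smaller than its spread. Cre 1, the library with the least erythroid RNA in these cells, also had the least Rgs10 in them; the part of this RNA was not tested. The Tnfrsf4 Igfbp7 cluster ranged over 95.4 to 151 CPM and overlapped the precursor memory-like cells. Cytotoxic-like cells held 43.7, 75.4, 84.1 and 43.1 CPM and were below precursor memory-like cells in 4 of 4 libraries, by 1.58 ± 0.58 in log2, beside 12.8% of genes. Over all cells of each lineage, the CD4+ Tc exceeded the CD8+ Tc of the same library, with 75.1, 145, 108 and 110.2 CPM against 39.9, 82.5, 49.9 and 36.4 CPM.

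Rgs2, the Gq-preferring member, had too few UMIs to be tied to 1 Tc state. Its level was 10.5 ± 3.32 CPM (SD, n = 4) in all CD8+ Tc and 11.3 ± 3.38 CPM (SD, n = 4) in all CD4+ Tc, and no pair of neighbouring clusters in either lineage had ranges that did not overlap. The highest CD8+ cluster was the Itga1 Klrb1b cluster in cre 1 and floxed 2 and the short-term effector-like cells in cre 2 and floxed 1. T_TEX-like minus T_PEX-like came to -0.29 ± 0.72 (SD, n = 4) on the log2 scale, with 1 of 4 libraries positive, and marker gates in place of clusters turned it to 0.19. Among the CD4+ Tc the means ran from 0.961 CPM in G2 and M phase cells to 21.8 CPM in Treg-like cells, and this last mean rested on 7 UMIs. In the Itga1 Klrb1b cluster, the CD8+ cluster with the most UMIs of Rgs2 (81), the level was 18.4 CPM in cre 1, 18.2 in cre 2, 19.3 in floxed 1 and 12.3 in floxed 2; it exceeded that of T_TEX-like cells in each library, by 0.69 ± 0.40 (SD, n = 4) in log2, beside 16.3% of genes.

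Read by lineage, 3 of the 5 members had the same highest CD8+ cluster in every library (Rgs1 and Rgs3 the Gzmk Ccl5 cluster, Rgs10 the T_PEX-like cells) and 1 of 5 had the same highest CD4+ cluster (Rgs3, cytotoxic-like), where 12.5% and 12.3% of all genes with a mean of at least 5 CPM did so. Because the members were picked for their state levels, these counts describe the choice. They were read under the reported clustering only. Without cre 1, the library that kept Havcr2 over all CD8+ Tc, the T_TEX-like minus T_PEX-like differences were 1.35 for Rgs1, 1.35 for Rgs3, 1.57 for Rgs16, -2.73 for Rgs10 and -0.27 for Rgs2 in log2. Each had the sign of the value over all libraries.

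Single cells were read after thinning each to 2000 UMIs, so that depth did not set the share with a UMI, and shallower cells were left out (15 of 570 T_PEX-like, 4 of 655 T_TEX-like, 69 of 434 Gzmk Ccl5, 28 of 324 cytotoxic-like, 18 of 321 precursor memory-like and 9 of 110 Treg-like cells). Rgs10 was found in 29.1% of T_PEX-like cells (51.0% unthinned) and 3.44% of T_TEX-like cells (11.3% unthinned), as means over 4 libraries. The granulocytic Ngp S100a9 cluster, taken as the background for this gene, had 0.610%, with median depths of 7102.5 UMIs there and 5069 and 5109 in T_PEX-like and T_TEX-like cells. The T_TEX-like share ranged from 1.76 to 7.55% over libraries.

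Shares of Rgs1, Rgs3 and Rgs16 had the reverse order. Rgs1 was found in 34.1% of Gzmk Ccl5 cells (53.3% unthinned), 26.0% of T_TEX-like cells (44.2%) and 7.26% of T_PEX-like cells (18.2%). Rgs3 was found in 35.5%, 30.2% and 11% of these cells (54.1%, 59.9% and 28.0% unthinned), and Rgs16 in 8.78%, 12.5% and 2.41% (14.2%, 27.8% and 7.66% unthinned). The Mt2 Atp1b2 cluster, cells outside the T cells with a median of 26665 UMIs, served as background. It had a UMI of Rgs1 in 0.230%, of Rgs3 in 0.157% and, unthinned, of Rgs16 in 0.958% of cells. The Gzmk Ccl5 cells had a median of 3230.5 UMIs. Thinning took away more of each deep background cell, so the thinned shares there may understate stray RNA in Tc. In the CD4+ lineage, Rgs1 was in 41.2% of cytotoxic-like, 31.5% of Treg-like and 6.82% of precursor memory-like cells (58.3%, 42.3% and 11.6% unthinned), while Rgs10 was in 12.1%, 34.3% and 29.7% (20.3%, 46.6% and 46.6%). A UMI of Rgs2 was rare in Tc, with at most 6.02% of a cluster on average.

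The CD8+ Tc were also split by single marker genes, with no clustering. Rgs10 was found in 24.7% of cells with and 8.33% of cells without a Tcf7 UMI, higher in 4 of 4 libraries. For Slamf6, a surface receptor of T_PEX, the shares of Rgs10 were 20.9% with and 8.28% without it. The widest of the gaps read was with Ccl5, a chemokine of effector cells: Rgs10 was in 7.35% of cells with and 29.9% of cells without a Ccl5 UMI, lower in every library. Rgs16 went with Nr4a2, a factor induced by TCR signals, in 12% of cells with and 4.76% of cells without a Nr4a2 UMI. With Tox, the exhaustion factor, the shares of Rgs16 were 8.0% and 3.41%, and with Itga1 they turned around, at 1.83% with and 6.61% without. Rgs1 and Rgs3 parted at Itga1 too: Rgs1 was in 24.6% of cells with and 18.9% without an Itga1 UMI, higher in 4 of 4 libraries, while Rgs3 was in 17.5% and 21%, lower in 4 of 4. Klf2, the factor of circulating cells, marked the low side of Rgs1, which was in 6.39% of cells with and 23.0% of cells without a Klf2 UMI.

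**Figure D2:**
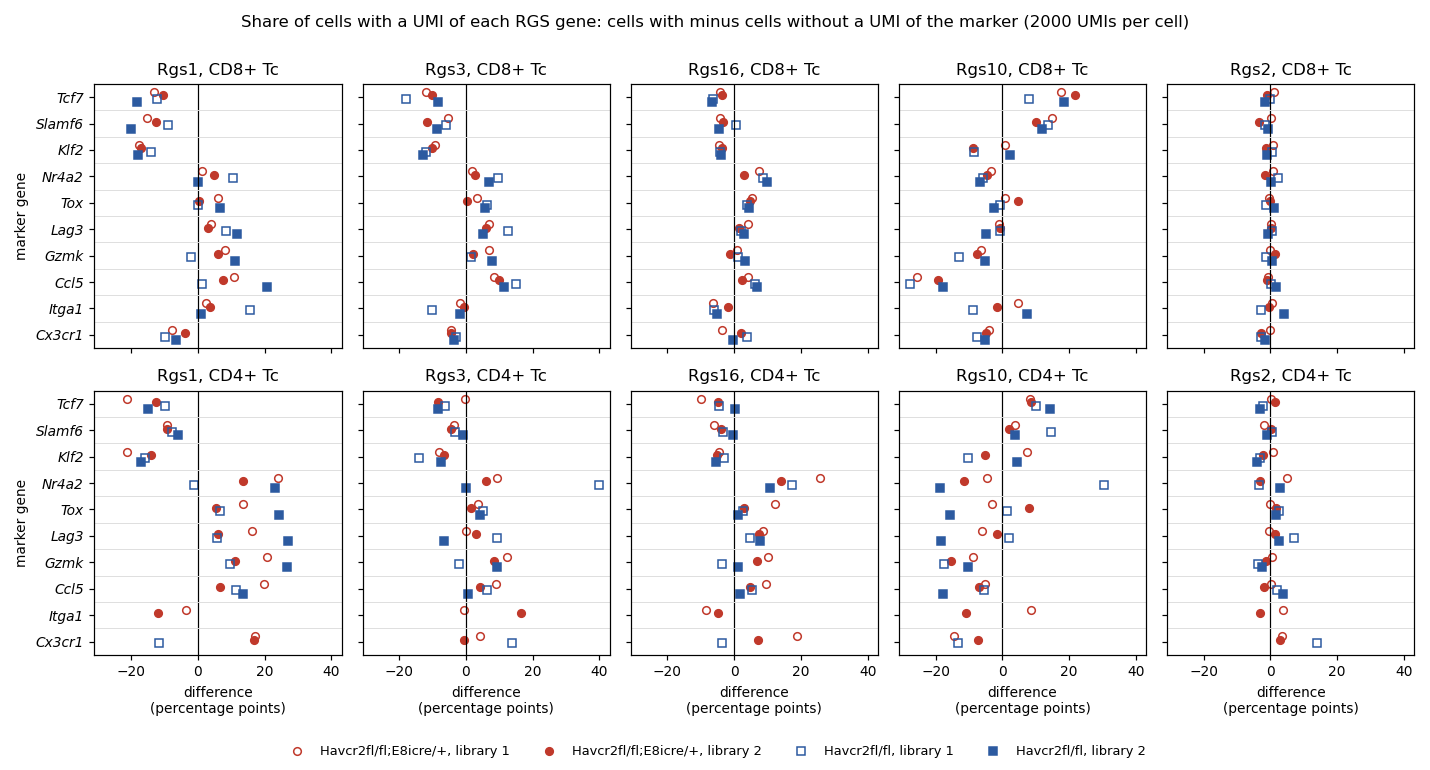
Share of CD8+ Tc (top) and CD4+ Tc (bottom) with a UMI of each RGS gene, as cells with minus cells without a UMI of the marker gene in the row, in percentage points; each point is a library, after thinning to 2000 UMIs per cell. In CD8+ Tc the points of Rgs10 lie right of 0 for Tcf7 and Slamf6 and left of 0 for Gzmk and Ccl5 in 4 of 4 libraries, and those of Rgs1 lie on the opposite side for Tcf7, Slamf6 and Ccl5.

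Among CD4+ Tc, Foxp3 went with both Rgs1 and Rgs10. Rgs1 was in 33.4% of cells with and 20.3% of cells without a Foxp3 UMI and Rgs10 in 33.9% and 19.5%, each higher in 3 of 3 libraries with at least 10 such cells. Gzmk split both members in opposite directions, with Rgs1 in 33.9% of cells with and 16.8% of cells without a Gzmk UMI and Rgs10 in 8.75% and 21.7%. Nr4a2 again went with Rgs16, in 21.4% of cells with and 4.44% of cells without a Nr4a2 UMI, higher in 4 of 4 libraries.

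Between 51.2% and 55.5% of the thinned CD8+ Tc of a library had no UMI of any of the 5 members, and at most 1.48% had UMIs of 3 or more. Rgs1 and Rgs3 were found in the same CD8+ cell in 5.19% of cells, where the product of their shares gave 4.0%, and the observed share was above the product in 4 of 4 libraries. Rgs3 and Rgs16 coincided in 1.67% against 1.33%, again above in 4 of 4. For Rgs1 and Rgs16 it was 1.42% against 1.24%, above the product in only 2 of 4 libraries. Rgs3 and Rgs10 went the other way, with 1.64% against 2.06% and 0 of 4 libraries above the product. In CD4+ Tc the pair of Rgs1 and Rgs10 was found together in 2.49% of cells against a product of 3.66%, above it in 0 of 4 libraries.

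Across the 15 Tc clusters read in at least 3 libraries, the mean levels of Rgs1 and Rgs16 had a Pearson correlation of 0.68. That of Rgs1 and Rgs3 was 0.64. Rgs10 had -0.36 with Rgs3, -0.29 with Rgs16, 0.03 with Rgs1 and 0.34 with Rgs2, so it was not the reverse of Rgs1 over all clusters. The clusters share libraries, so these values are descriptions. Of 5798 other genes with a mean of at least 20 CPM, the most like Rgs1 were Jak3 (0.94), the kinase of the common gamma chain receptors, Scly (0.93) and the transcription factor gene Cebpb (0.91). The nearest to Rgs16 were Trps1 (0.91) and 2 factors of exhausted cells, Tox (0.89) and Nr4a2 (0.88). Both factors were themselves on the list of T_TEX markers. Tox was not raised in T_TEX-like cells and was highest in the Gzmk Ccl5 cluster. Those of Rgs10 were Inpp4b (0.92), a phosphoinositide phosphatase, the costimulatory receptor gene Icos (0.91) and Traf1 (0.90), an adaptor of TNF receptors. For Rgs3 they were Gm14029 (0.96), Rbl2 (0.93) and Cd164 (0.93). Rgs2, with few UMIs, had lower values, led by Top3b (0.87), Golga5 (0.85) and Med1 (0.84).

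Outside the Tc, Rgs2 and Rgs10 reached their highest levels. Dendritic-like cells, with 4 of 6 markers raised, held 318, 351 and 516 CPM of Rgs10 and 133, 351 and 221 CPM of Rgs2 in cre 1, cre 2 and floxed 2; there were 6 such cells in floxed 1, too few to read. Rgs2 followed the myeloid lineage: it was at 124 CPM in cre 1, 179 in cre 2, 89.3 in floxed 1 and 138 in floxed 2 in the Ngp S100a9 cluster, cells with neutrophil granule genes, and at 54.3 to 68.6 CPM in granulocyte-monocyte progenitor-like cells. Every one of these values was above the highest Rgs2 value of any Tc cluster. Rgs10 was also present in the unnamed Mt2 Atp1b2 cluster, with 142, 181, 201 and 249.5 CPM, and in erythroid-like cells, with 115, 65.4, 95.2 and 204 CPM. It was at or below 8.85 CPM in the Ngp S100a9 cluster. Rgs1 stood at 64.9 to 185 CPM in basophil or mast-like cells, at 51.2 to 186 CPM in dendritic-like cells, and did not exceed 27.5 CPM in any library of the other clusters outside the Tc. Rgs16 had a mean above 3 CPM in 1 of the clusters outside the Tc, the dendritic-like cells, and there 79.6 CPM in cre 1 stood against 7.31 CPM in cre 2 and 0 in floxed 2, where a count of 0 allows up to 18.4 CPM.

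**Figure D3:**
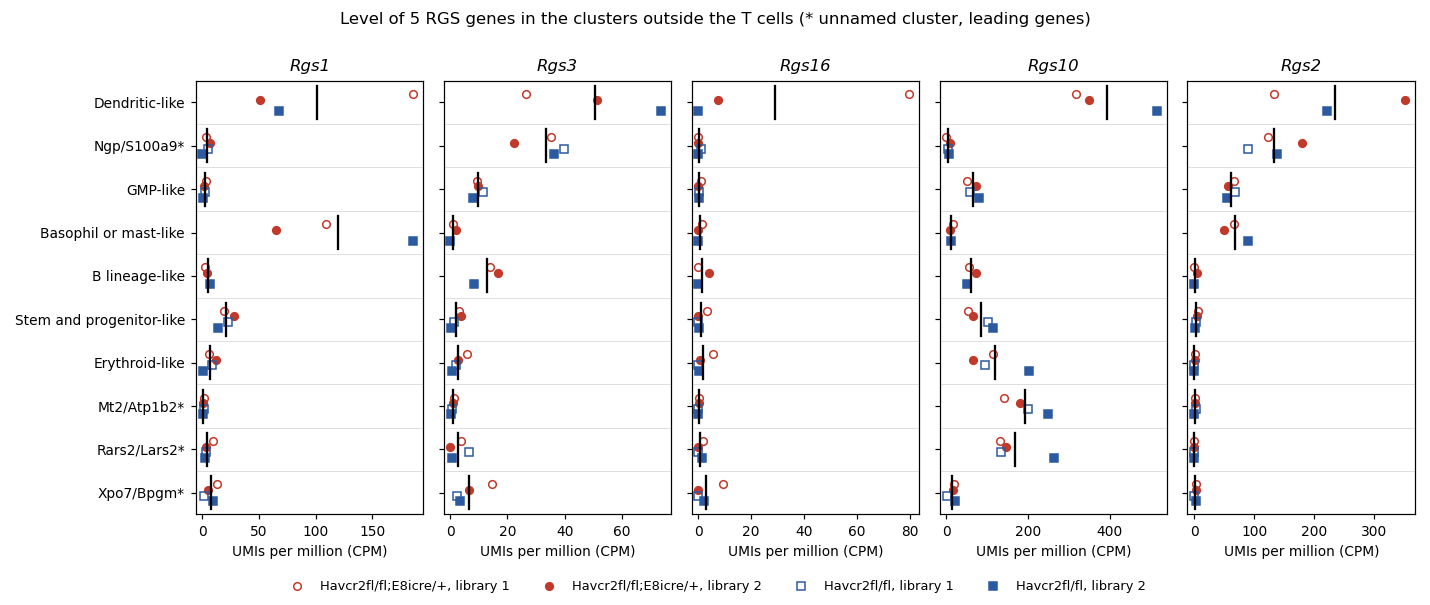
Level of each RGS gene (CPM, horizontal axis) in 10 clusters outside the T cells (rows); each point is a library with at least 10 cells of the cluster and the black bar is the mean. Rgs10 and Rgs2 are highest in dendritic-like cells, Rgs2 is high in the myeloid clusters, and Rgs16 is near 0 outside 1 dendritic-like value.

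Whether the donor genotype moved the members was tested with edgeR's quasi-likelihood test on the UMIs summed per library, with Benjamini-Hochberg adjustment over all genes. In CD8+ Tc 0 of the 5 members passed, where 3 of 10871 genes, 0.0276%, did so and 289 had an unadjusted p under 0.05. Rgs10 had the largest estimate, a log2 difference of 0.48 (SE 0.34) from levels of 38.1 and 84.7 CPM in cre 1 and cre 2 and 50.8 and 36.8 CPM in floxed 1 and floxed 2, and the genotypes overlapped. Those of Rgs1, Rgs2, Rgs3 and Rgs16 were -0.18 (SE 0.21), 0.21 (SE 0.37), 0.02 (SE 0.19) and -0.04 (SE 0.23), and the adjusted p of each member was 0.999 (edgeR quasi-likelihood, Benjamini-Hochberg). In 0 of 5 members did the libraries of both genotypes stay apart, against 27.8% of all genes. Havcr2 itself did not pass with all 4 libraries. Its log2 difference was -1.35 (SE 0.65), with an adjusted p of 0.999 (edgeR quasi-likelihood, Benjamini-Hochberg). The test thus did not call the gene meant to be deleted, so 0 of 5 passing does not show that the members were unmoved.

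T_PEX-like cells, the CD8+ Tc with the most Rgs10, made up 169 of 1528 CD8+ Tc in cre 1, 197 of 954 in cre 2, 79 of 487 in floxed 1 and 125 of 1285 in floxed 2. The order of the libraries by this share was the same as their order by Rgs10 over all CD8+ Tc, and its part in the genotype estimate was not tested. Leaving out cre 1 raised the Rgs10 estimate in CD8+ Tc to 0.95 (SE 0.28), with an adjusted p of 0.469 by edgeR's quasi-likelihood test with Benjamini-Hochberg adjustment, the lowest of its alternatives, which reached 1. Without cre 2 it was -0.20. The other members lay between -0.30 and 0.48 without cre 1, and Havcr2 was then at -3.40 in log2 against -1.35 with all 4 libraries. The fit without cre 1 compares 1 mouse with 2 and takes the lone library to vary like the floxed ones.

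In CD4+ Tc, in which the E8i Cre is not meant to act, again 0 of 5 members passed, beside 0.0104% of 9642 genes, and 31.1% of genes but 0 of 5 members had genotypes that did not overlap. The log2 differences were 0.29 (SE 0.27) for Rgs1, -0.39 (SE 0.41) for Rgs2, 0.30 (SE 0.23) for Rgs3, -0.02 (SE 0.30) for Rgs10 and 0.25 (SE 0.26) for Rgs16. Without cre 1 they lay between -0.08 for Rgs2 and 0.40 for Rgs10. The difference between the genotype effect in CD8+ Tc and that in CD4+ Tc was tested in 1 model with the mouse as a block: 0 of 5 members passed, beside 0.0184% of genes. Rgs10 had 0.50 (SE 0.17) and Rgs1 -0.45 (SE 0.18) in this test (0.53 and -0.19 without cre 1), with an adjusted p of 0.997 for both in edgeR's quasi-likelihood test with Benjamini-Hochberg adjustment.

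The comparisons within the T_PEX-like cells and within the T_TEX-like cells were both added after the data had been seen. In T_PEX-like cells Rgs10 was higher in both cre libraries, at 198 and 254 TMM-scaled CPM, than in both floxed ones, at 132 and 134. The log2 difference of 0.77 (SE 0.23) had an adjusted p of 0.597 by edgeR's quasi-likelihood test with Benjamini-Hochberg adjustment and did not pass. Leaving out any 1 library gave log2 differences of 0.57 to 0.94, with 0.94 without cre 1. In these cells Havcr2 RNA was low in both cre libraries, cre 1 among them, though counted from few UMIs. Rgs3 was the other member whose genotypes did not overlap in these cells, with 0.47 (SE 0.28), and 0.24 without cre 1. Such a gap was found in 35.6% of the genes tested in T_PEX-like cells, and 0.0576% of them passed the test. Among T_TEX-like cells 4 members could be tested and 0 passed, as did 0% of the genes tested there (285 had an unadjusted p under 0.05, and DESeq2 called 0); Rgs3 alone had genotypes apart, beside 32.3% of genes, and Rgs10 was at -0.22 (SE 0.45), or 0.10 without cre 1.

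**Figure D4:**
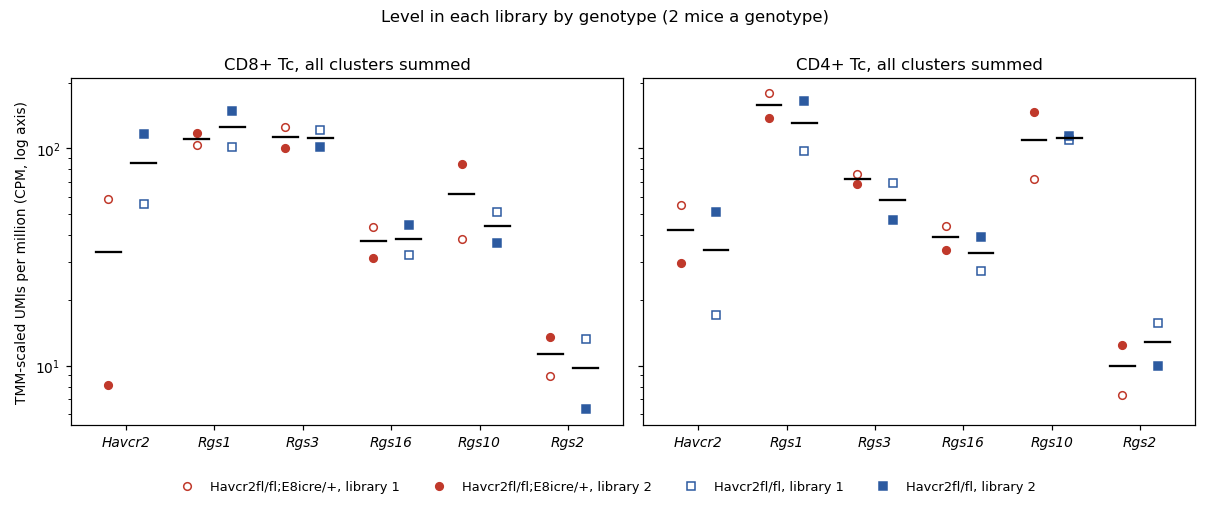
TMM-scaled level (CPM, log axis) of Havcr2 and the 5 RGS genes in each library, over all CD8+ Tc (left) and all CD4+ Tc (right); points are single mice, bars are means of 2. Havcr2 is low in 1 of the cre libraries in CD8+ Tc, and for each of the 5 RGS genes the points of both genotypes overlap.

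The rest of the G protein pathway was read from lists of genes. Of the 16 other RGS genes, 4 had counts enough for the test in CD8+ Tc (Rgs11, Rgs12, Rgs14 and Rgs19) and 0 passed. The genotypes did not overlap in CD8+ Tc for Rgs11, Rgs12 and Rgs19, beside 27.8% of all genes. Rgs11 had the largest log2 difference among them, 1.05 (SE 0.46). Its TMM-scaled levels were 3.79 and 3.93 CPM in cre 1 and cre 2 and 2.04 and 1.68 CPM in floxed 1 and floxed 2. Rgs14, of the subfamily of Rgs10, and Rgs19, of yet another subfamily, were found in all 15 clusters, with means of 20.8 CPM in S phase cells to 54.1 CPM in Treg-like cells and of 33.3 CPM in T_TEX-like cells to 54.3 CPM in G2 and M phase cells. Neither had the contrast of T_PEX-like against T_TEX-like cells of Rgs10: Rgs14 was at 28.3 and 26.7 CPM and Rgs19 at 36.7 and 33.3 CPM in these states. Rgs12 stayed between 5.21 and 13.7 CPM. Rgs8 passed 5 CPM in T_TEX-like cells and Rgs9 and Rgs11 in Treg-like cells, on 24, 4 and 3 UMIs.

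Of 29 G protein-coupled receptors, 26 were tested in CD8+ Tc and 26 in CD4+ Tc, and 0 passed in either direction. Of all genes tested, 0.0276% passed in CD8+ Tc and 0.0104% in CD4+ Tc. With so few genes passing, counts of 0 do not show that a list was unmoved. The 2 with the most RNA were Cxcr6, a chemokine receptor of resident cells, with means over the Tc clusters from 19.2 to 825 CPM, and the proton sensor Gpr65, from 41.9 to 235 CPM. Among 19 G protein subunits, 15 were tested in each lineage and 0 passed; Gnai2, the main Gi alpha subunit of lymphocytes, ranged from 523 to 904 CPM and Gnas, the Gs alpha subunit, from 485 to 743 CPM. Of 9 names for receptor kinases and arrestins, 7 were in the matrices and 6 in CD8+ and 4 in CD4+ Tc were tested, with 0 passing. Grk2 was at 147 to 241 CPM and Grk6 at 84.0 to 134 CPM. Of 21 effectors 19 were tested in each lineage and 0 passed, among them Rhoa, at 282 to 418 CPM, and Arhgef1, at 199.8 to 379 CPM. No list had a member past the threshold in T_PEX-like or T_TEX-like cells or in the comparison of both genotype effects either. Of all genes, 0.0576%, 0% and 0.0184% passed there.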

How the data were processed

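The authors deposited filtered UMI counts per gene and cell, made with Cell Ranger 6.1.2 on mm10 per the submitters' processing notes; the library kit reads the 3′ end. The 5 members, the gene lists and the markers were chosen with earlier results of these data known. Cells needed 500 genes, 1000 UMIs and a mitochondrial share of 10% or less, doublets were removed with Scrublet in scanpy 1.11.5, and Seurat 5.3.0 clustered all cells, then CD8+ and CD4+ Tc separately, after CCA integration of the libraries and without RGS genes and Havcr2. A cluster took a name with at least 3 markers and 50% of a list raised while its top 10 genes held no more markers of another class; a list raised to at least 75% was taken without the last condition, a step added after the names had been seen. T_TEX-like cells rest on that step. The resolution was the lowest tried that gave at least 21 clusters of all cells, 10 of CD8+ Tc and 6 of CD4+ Tc. UMIs were summed per library and cluster. State differences are means over libraries of log2(CPM + 5) with no test. Genotypes were compared with edgeR 4.0.16 (TMM, filterByExpr, quasi-likelihood, Benjamini-Hochberg over all genes, threshold 0.05), and DESeq2 1.42.0 was an alternative. Counts were simulated with 200 changed genes. Changes of 1 and 2 in log2 were recovered in 44.5% and 92.0% of these for CD8+ Tc, with 19 and 12 false calls. For CD4+ Tc it was 23.5% and 89.5%, with 3 and 17 false calls. For T_PEX-like cells it was 32.5% and 97.5%, with 5 and 14, and for T_TEX-like cells 28.0% and 95.0%, with 11 and 15. Median UMIs per cell in CD8+ Tc were 4748.5 in cre 1, 6161.5 in cre 2, 6974 in floxed 1 and 3024 in floxed 2. In CD4+ Tc they were 3841, 5268, 5406 and 2745.5 in the same order. The deeper libraries, cre 2 and floxed 1, also had the most Rgs10 over all CD8+ Tc, and the part of depth was not tested. Scrublet marked 1 to 105 cells a library, so removal at the expected rate was an alternative.

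Named genes were the members, Havcr2, other RGS genes with at least 5 CPM in a Tc cluster, the 2 genes of each pathway list with the most RNA, any list gene past the threshold, and the 3 genes most like each member. Promoters came from RefSeq (GRCm38.p6), which held 4 of the 5 members. Motifs were searched in the window that ends 21 bases before the start, and a second Rgs3 start inside an exon was left out. Gene places came from GENCODE on GRCm38. Intervals were not given for sums over libraries; the 2 mice per genotype limit the precision.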

Additional observations from a re-analysis of the deposited data

How the results depend on the processing

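The call of the members did not change: 0 of those tested passed in the comparisons between genotypes under DESeq2, DESeq2 size factors, no filter on low counts, stricter cell filter, doublet removal at the expected rate, a replicate block or any library left out. The number of genes called moved more. Without a filter on low counts it was 98 in CD8+ Tc (3 as reported), 47 in CD4+ Tc (1), 56 for the difference of both effects (2), 49 in T_PEX-like (4) and 27 in T_TEX-like cells (0). DESeq2 called 7 in CD4+ Tc. The stricter cell filter left 0 in CD4+ Tc, 4 for the difference and 1 in T_PEX-like cells, and doublet removal at the expected rate left 0 in CD4+ Tc. Leaving out 1 library gave 2 to 28 in CD8+ Tc, 0 to 27 in CD4+ Tc, 7 to 37 for the difference, 11 to 33 in T_PEX-like and 0 to 16 in T_TEX-like cells. The counts in CD8+ and CD4+ Tc were 21 and 27 without cre 1, 28 and 5 without floxed 1, 11 and 0 without floxed 2 and 2 and 24 without cre 2; that of 16 was without floxed 1. For the difference they were 19 without cre 1, 7 without cre 2, 8 without floxed 1 and 37 without floxed 2, and in T_PEX-like cells 21, 11, 32 and 33. The cause was not tested.

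Replicate numbers are shared by both genotypes, but samples of the same number did not deviate together (correlation of the replicate differences -0.15 in CD8+ and -0.04 in CD4+ Tc). With the number as a replicate block, 0 genes were called in CD8+ Tc, 0 in CD4+ Tc, 6 in T_PEX-like and 0 in T_TEX-like cells. The crossed pairing, added after seeing the data, called 71 in CD8+ Tc, 17 in CD4+ Tc, 8 in T_PEX-like and 11 in T_TEX-like cells.

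Member estimates that changed sign without 1 library ran, in log2, from -0.42 to 0.12 for Rgs1, -0.25 to 0.82 for Rgs2, -0.16 to 0.17 for Rgs3, -0.20 to 0.95 for Rgs10 and -0.30 to 0.22 for Rgs16 in CD8+ Tc. In CD4+ Tc they ran from -0.063 to 0.70 for Rgs1, -0.83 to 0.0072 for Rgs2, -0.63 to 0.40 for Rgs10 and -0.0065 to 0.50 for Rgs16. In T_PEX-like cells they ran from -0.28 to 0.40 for Rgs1, -0.71 to 1.37 for Rgs2 and -0.85 to 0.97 for Rgs16, and in T_TEX-like cells from -0.73 to 0.45 for Rgs1, -0.66 to 0.19 for Rgs10 and -0.15 to 0.16 for Rgs16.

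For T_TEX-like minus T_PEX-like cells, gates on Nr4a2 and Tcf7 in place of clusters gave 0.19 for Rgs2, 0.84 for Rgs3, -2.12 for Rgs10 and 2.68 for Rgs16 in log2. The stricter cell filter gave 0.0074 for Rgs2, and clustering with no integration gave 0.69 for Rgs16. Rgs1, Rgs3, Rgs10 and Rgs16 kept their direction under every alternative run for this difference. The gates are no independent check for Rgs16 and Rgs10, which went with Nr4a2 and Tcf7 in single CD8+ Tc. For Treg-like minus precursor memory-like cells, clustering with no integration gave 1.15 for Rgs1, -0.15 for Rgs2, 0.13 for Rgs3, 0.41 for Rgs10 and -0.81 for Rgs16. Marker gates, cells with a Foxp3 UMI against cells with Tcf7 and no Foxp3 UMI, gave 2.07 for Rgs1, -0.21 for Rgs3 and 0.16 for Rgs10. TMM scaling gave 0.094 for Rgs3 and -0.27 for Rgs10, and the stricter cell filter 0.82 and 0.099. The higher resolution gave 0.0048 for Rgs10 and -0.49 for Rgs16, and a pseudocount of 1 CPM gave -0.36 for Rgs16. Without 1 library the differences ran from -0.099 to 2.01 for Rgs2, -0.092 to 0.007 for Rgs10 and -0.80 to 1.46 for Rgs16. Only Rgs1 held its direction in every setting of this comparison, and the orders of Rgs2, Rgs3, Rgs10 and Rgs16 between these 2 states cannot be read. The lower resolution left 1 CD4+ cluster and gave no value there. The stricter filter and the doublet rate were applied to the cells as clustered, with no new clustering. Only T_TEX-like, T_PEX-like, Treg-like and precursor memory-like cells were read under other clusterings. The placements in other clusters were not, among them the peaks of Rgs1 and Rgs3 in the Gzmk Ccl5 cluster. Nor were the differences with the CD4+ cytotoxic-like cells.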
